A study of Homo sapiens with 12 samples.

Results

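A set of 10 apolipoprotein genes was followed across HepG2 cells kept in low or high glucose, with and without valproic acid (VPA). They were taken by symbol, from a set drawn up with earlier results of these data known: APOA1, APOA2, APOA4, APOA5, APOB, APOC1, APOC3, APOE, APOH and APOM. All 10 of the 10 listed had a row among the 16389 genes of the count table. HepG2 cells are an immortal line grown from a human liver tumour, so the 12 libraries are of 1 transformed line and not of normal hepatocytes. LG cells were grown in medium with 5.5 mM glucose, and HG cells were moved to 20 mM glucose for 48 h. LGV and HGV cells received the same media and then 1 mM VPA, an inhibitor of histone deacetylases, for 12 h. Whether the untreated cells were collected before or after those 12 h is not given in the sources used here, so VPA and a difference in culture time cannot be told apart in HGV against HG and in LGV against LG. Each of the 4 groups had 3 libraries of poly(A)-selected RNA. The labels do not say whether the 3 came from separate cultures, so the p-values cover the spread between libraries, which may be technical.

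Apolipoproteins are the proteins of lipoprotein particles, which carry triglyceride and cholesterol through blood, and the liver secretes most of them. APOB is the structural protein of very-low-density and low-density lipoprotein, and its particles are cleared through the LDL receptor. APOA1 and APOA2 are the main proteins of high-density lipoprotein (HDL), while APOM is a minor one that carries sphingosine-1-phosphate. APOC3 inhibits lipoprotein lipase and the clearance of triglyceride-rich particles, whereas APOA5 promotes the action of that lipase, and APOA4 is made mostly in the intestine. APOE is a ligand of the receptors that take up remnant particles, APOC1 opposes this uptake and inhibits cholesteryl ester transfer, and APOH binds phospholipids and the surface of lipoproteins.

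Between 29798442 and 45572694 reads per library were counted on genes. The hepatocyte markers chosen for a check were all in the table, 14 of 14, with a summed level of 44815 to 72779 CPM (counts per 1e6 reads, scaled with TMM factors) and ALB at 18946 CPM or more in each library. CYP3A4 was near absence, at 0.842 CPM or less. Of 20 markers of other cell types, 9 had a row, with sums of 347 to 379 CPM in LGV, 370.1 to 429 in LG, 396 to 452 in HGV and 523 to 528 in HG, of which most came from SOX9 and EPCAM. These sums moved with glucose and VPA, and their part in the results was not tested.

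APOB was the tenth most abundant gene of the table by reads and APOH ranked 41, APOA1 73, APOE 82 and APOA2 153, whereas APOA4 ranked 10971. The 10 genes together took 1.36% ± 0.130 (SD, n = 3) of the counts in LG, 1.42% ± 0.0809 in HG, 0.985% ± 0.0707 in LGV and 1.21% ± 0.212 in HGV. APOB alone made up 42.0% to 62.9% of these reads per library. Without APOB the shares were 0.628% in LG, 0.726% in HG, 0.443% in LGV and 0.534% in HGV. In bulk RNA, fewer cells of a kind and less RNA per cell cannot be told apart.

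Per kilobase of exon, APOH had the highest level of the 10 in LG, at 1812 ± 107 RPKM (CPM per kilobase of exon, SD, n = 3). The exon length merges the exons of all annotated transcripts of a gene, so the order between genes depends on the annotation. Next came APOA1 at 1125 ± 125 and APOA2 at 1112 ± 183 RPKM, a pair closer to each other than their spread. APOE followed at 688 ± 97.8, APOB at 538 ± 33.6, APOM at 277 ± 22.1 and APOC1 at 232 ± 15.7 RPKM. APOC3 lay at 54.6 ± 14.9, APOA5 at 15.2 ± 4.47 and APOA4 at 2.40 ± 0.0976 RPKM. APOB, first of them by reads, lay below APOE per length, with 14828 bases of exon against 1332 for APOH. In HG the order was APOH at 2150 ± 237, APOA1 at 1547 ± 123, APOA2 at 742 ± 111, APOE at 582 ± 69.4, APOB at 475 ± 79.1 and APOM at 314 ± 31.1 RPKM. APOA1 and APOA2, level in LG on this scale, were separated there, while libraries of APOE and APOB overlapped.

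**Figure D1:**
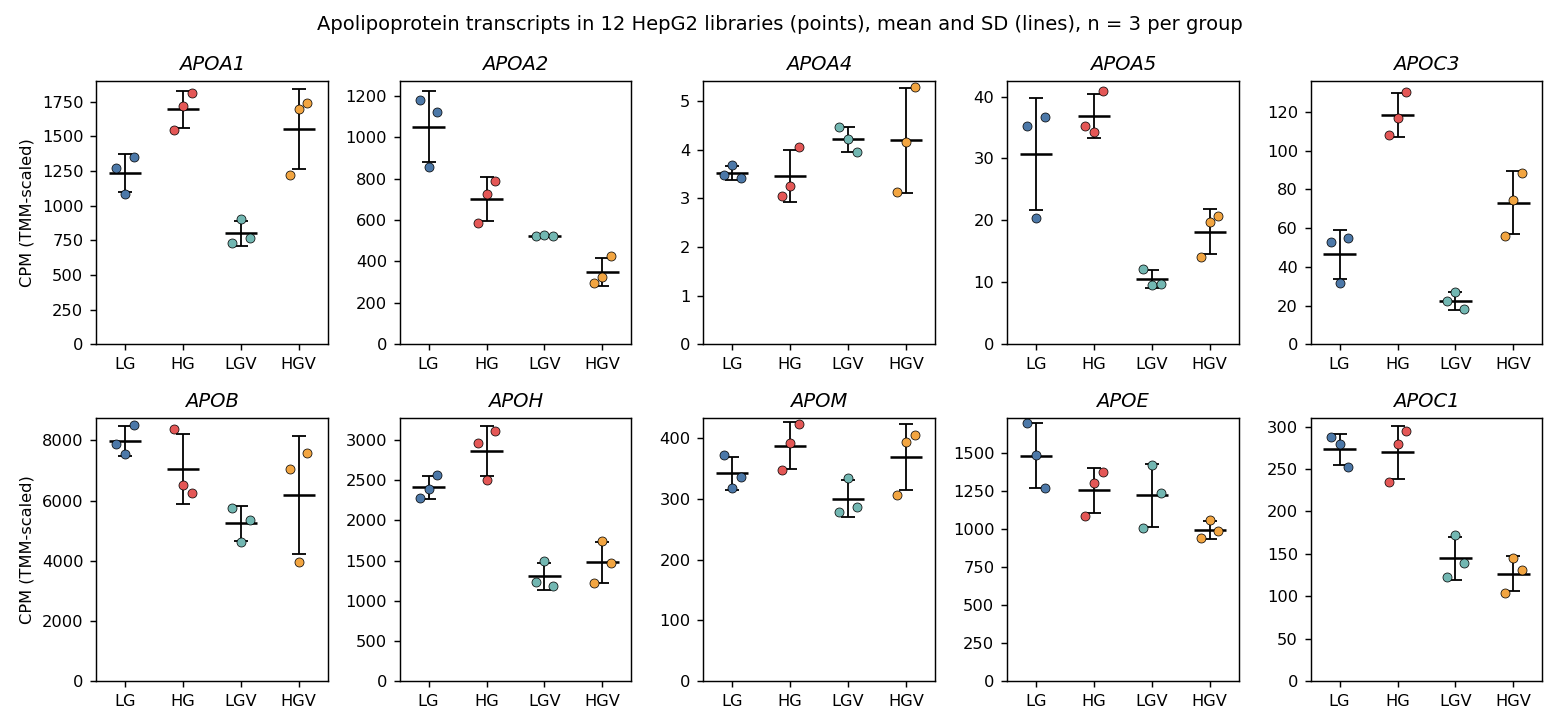
Level of each apolipoprotein gene in CPM scaled with TMM factors (vertical axes, each from 0) in the 4 groups, with points for libraries and lines for the mean and SD of 3 libraries. APOC3 was highest in the 3 HG libraries (108 to 130.4 CPM) and lowest in the 3 LGV libraries (18.0 to 27.2 CPM), and APOA2 was highest in LG (855 to 1179 CPM) and lowest in HGV (293 to 426 CPM).

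Whether high glucose alone altered these genes was asked by comparing HG with LG. APOC3 and APOA1 rose, APOA2 fell, and the other 7 did not pass the threshold, a false discovery rate (FDR) of 0.05 or less in edgeR's quasi-likelihood test adjusted over all genes tested. So 3 of the 10 were called, where 24.7% of the 15452 genes tested were called (12% higher and 12.7% lower). The same 3 were those whose HG and LG libraries did not overlap, as was true of 41.2% of all genes (19.3% with HG higher and 21.8% lower). The median log2 fold change was 0.10 over the 10 genes and 0.011 over all genes.

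APOC3, the lipase inhibitor (ENSG00000110245, chr11:116700422-116703788 on the plus strand of GRCh37), had 108, 117 and 130.4 CPM in the HG libraries and 52.8, 31.9 and 54.7 CPM in LG. Every HG library lay above every LG library, and the fitted level was 2.60-fold higher (log2 fold change 1.38, SE 0.17, FDR 1.32e-05). APOA1, the main HDL protein (ENSG00000118137, chr11:116706467-116708338, minus strand), had 1549, 1722 and 1815 CPM in HG and 1269.8, 1083 and 1348 CPM in LG. Here too the groups were apart, with a rise of 39.7% (log2 fold change 0.48, SE 0.13, FDR 0.00991). APOA2, its partner in HDL (ENSG00000158874, chr1:161192082-161193421, minus strand), moved the other way. It had 586, 727 and 790.1 CPM in HG against 1179, 855 and 1119 CPM in LG, and fell by 32.1% (log2 fold change -0.56, SE 0.14, FDR 0.00879). This call was lost without HG replicate 1 (FDR 0.0684) or without LG replicate 1 (FDR 0.0753), with log2 fold changes of -0.43 and -0.45.

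APOH and APOM had higher means in HG and APOE and APOB lower ones, all with overlapping libraries. APOH had a log2 fold change of 0.27 (FDR 0.119), which passed when only library sizes were used for scaling (FDR 0.0290) and without LG replicate 3 (FDR 0.0397). The values were 0.20 for APOM (FDR 0.237), 0.29 for APOA5 (FDR 0.256), -0.22 for APOE (FDR 0.252) and -0.16 for APOB (FDR 0.392). LG replicate 2 stood low for APOC3, as given above, and for APOA5, where it held 20.4 CPM, below the 35.3 and 36.6 CPM of its group. APOC1 and APOA4 had estimates near 0, and the 95% intervals of their log2 difference ran from -0.26 to 0.27 and from -0.45 to 0.44.

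Cells in high glucose with and without VPA were compared as HGV against HG. In this comparison 6 of the 10 genes fell and none rose, where 46.1% of 16188 genes were called, 25.8% higher and 20.2% lower. No gene with a higher level in HGV had an unadjusted p under 0.05 among the 10, and DESeq2 also called 0 higher. The 6 were APOC1, APOA5, APOA2, APOH, APOC3 and APOE. In each of these 6 every HGV library was below every HG library, as for 24.5% of all genes, and no member had HGV libraries all above HG, as had 30.1% of all genes (54.6% in either direction). The median log2 fold change of the 10 was -0.52, and that of all genes 0.025. HG against LG and HGV against HG use the same HG libraries, so their values are not independent.

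APOC1, the inhibitor of remnant uptake (ENSG00000130208, chr19:45417504-45422606, plus strand), had 104, 145 and 130.5 CPM in HGV and 235, 279 and 294 CPM in HG. It fell by 53.1% (log2 fold change -1.09, SE 0.13, FDR 3.22e-05). APOA5, the activator of triglyceride clearance (ENSG00000110243, chr11:116660083-116663136, minus strand), was low in each HGV library, with 14.0, 19.7 and 20.8 CPM against 35.3, 34.3 and 40.9 CPM in HG. It fell by 50.7% (log2 fold change -1.02, SE 0.15, FDR 0.000133). APOA2 went from 586, 727 and 790.1 CPM in HG to 293, 326 and 426 CPM in HGV and fell by 50.3% (log2 fold change -1.01, SE 0.15, FDR 0.000168). APOA2, already lower in HG than in LG, thus had its lowest level of the 4 groups in HGV.

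APOH, the phospholipid-binding protein (ENSG00000091583, chr17:64208151-64252643, minus strand), had 1226, 1738 and 1474 CPM in HGV and 2970.4, 2509 and 3112 CPM in HG, and fell by 48.4% (log2 fold change -0.95, SE 0.14, FDR 0.000163). The 3 HGV libraries of APOC3 held 56.0, 74.6 and 88.8 CPM, below the HG libraries and above the LG libraries of 31.9 to 54.7 CPM. It fell by 38.3% from HG (log2 fold change -0.70, SE 0.15, FDR 0.00217). APOE, the remnant ligand (ENSG00000130203, chr19:45409048-45412650, plus strand), had the smallest of the 6 changes and fell by 20.7% (log2 fold change -0.33, SE 0.12, FDR 0.0349), with 942, 1056 and 985 CPM in HGV and 1086, 1303 and 1372 CPM in HG. The APOE call was lost with library sizes as scaling (log2 fold change -0.21, FDR 0.132), in one fit of all 12 libraries (FDR 0.0625), at an FDR of 0.01 and without HG replicate 2 or 3 or HGV replicate 1 or 3 (FDR 0.0786 to 0.173).

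APOA1 did not pass in high glucose, with 1218, 1699 and 1741 CPM in HGV (log2 fold change -0.13, FDR 0.496). HGV replicate 1 lay below all HG libraries, the other HGV libraries lay within the HG range, and without HGV replicate 1 the estimate was 0.021. Its 95% interval of -0.44 to 0.18 leaves room for a moderate fall but not for one as large as that of APOC1. APOB (ENSG00000084674, chr2:21224301-21266945, minus strand) had 7056, 3946 and 7577 CPM in HGV and 8390.0, 6505 and 6237 CPM in HG. HGV replicate 2 was far below the other HGV libraries for this gene, and the log2 fold change was -0.19 (FDR 0.508, 95% interval -0.65 to 0.28). Without that library the estimate was 0.058. APOM (ENSG00000204444, chr6:31620193-31625987, plus strand) had 306, 395 and 406 CPM in HGV and 347, 393 and 424 CPM in HG, with a log2 fold change of -0.073 (FDR 0.672). APOA4 (ENSG00000110244, chr11:116691416-116694020, minus strand), with 93 to 180 reads per library, was the one gene with a positive estimate, 0.28 (FDR 0.311).

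In low glucose, LGV against LG, 7 of the 10 genes fell and none rose, where 41.6% of 15944 genes were called, 21.7% higher and 19.9% lower. Again 0 of the 10 were higher with an unadjusted p under 0.05 or by DESeq2. Their median log2 fold change was -0.75, against -0.0057 over all genes. APOA5 fell by 65.6%, the largest change, from 35.3, 20.4 and 36.6 CPM in LG to 12.2, 9.61 and 9.66 CPM in LGV (log2 fold change -1.54, SE 0.20, FDR 3.10e-05). Each LGV library held less APOA5 than any other library of the series. APOC3 went from 52.8, 31.9 and 54.7 to 22.1, 27.2 and 18.0 CPM and fell by 51.3% (log2 fold change -1.04, SE 0.20, FDR 0.000675). The LGV libraries of APOA2 were close together at 521, 529 and 521 CPM, and it fell by 49.8% (log2 fold change -0.99, SE 0.14, FDR 5.30e-05).

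APOC1 had 123, 172 and 139 CPM in LGV against 288, 279.6 and 252 CPM in LG (log2 fold change -0.91, SE 0.14, FDR 8.89e-05). APOH had 1231, 1494 and 1188 CPM in LGV against 2285, 2389.9 and 2567 CPM in LG (log2 fold change -0.88, SE 0.14, FDR 0.000150). In both genes the groups were wide apart: APOC1 fell by 46.7% and APOH fell by 45.5%. APOA1 and APOB, which had not passed in high glucose, fell here. APOA1 had 731, 905 and 765 CPM in LGV and 1269.8, 1083 and 1348 CPM in LG, and fell by 34.6% (log2 fold change -0.61, SE 0.14, FDR 0.00256). APOB, the particle protein, had 5765, 4616 and 5341 CPM in LGV and 7884, 7544 and 8524 CPM in LG, and fell by 33.8% (log2 fold change -0.60, SE 0.15, FDR 0.00456). APOE (log2 fold change -0.27, FDR 0.183) and APOM (-0.18, FDR 0.274) had overlapping libraries. APOA4 was higher in each LGV library, at 4.47, 4.22 and 3.95 CPM against 3.48, 3.69 and 3.42 CPM, without passing the test (0.27, FDR 0.305), so that 8 of the 10 genes had groups that did not overlap, against 50.5% of all genes. For 7 members LGV was the lower group, as for 24.8% of all genes, and for 1 the higher, as for 25.7%.

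The 2 VPA comparisons share no library. APOA2, APOA5, APOC1, APOC3 and APOH fell in both, 5 of the 10 genes against 14.8% of the 15743 genes tested in both, and 0 of 10 rose in both against 17.5%. The estimates had the same sign in both media for 10 of 10 genes, as for 81.9% of all genes.

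**Figure D2:**
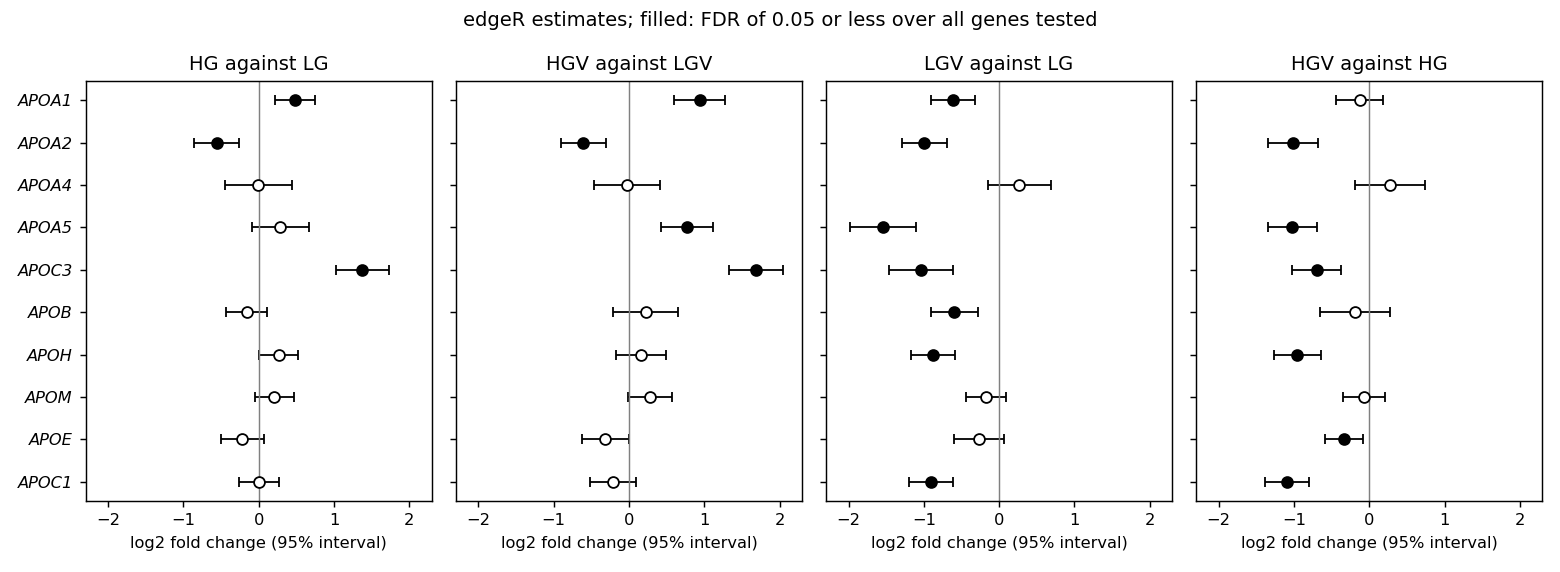
Log2 fold change of each gene (horizontal axes) with its 95% interval from edgeR's quasi-likelihood fit, 1 panel per comparison of 3 with 3 libraries, and filled points for an FDR of 0.05 or less over all genes tested. In both VPA panels APOA2, APOA5, APOC1, APOC3 and APOH lie between -1.54 and -0.70, and in both glucose panels APOC3 lies farthest to the right, at 1.38 and 1.69.

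The stretches around the start of 4 of the 5 genes that fell with VPA in both media are shown, with that of APOM, which did not pass in any of the 4 comparisons, set beside them. They are the RefSeq promoter windows on GRCh38.p14, 250 bases before to 30 after the start of the gene, read on the strand of the gene. Such windows were found for 7 of the 10 genes, and APOA1, APOB and APOC3 were not matched. APOA5 had 2 windows, of which the one farther upstream is shown. Capitals mark short motifs that were searched on both strands. They were the TATA box, spelled TATAAA, the half-site of nuclear receptors, spelled AGGTCA, and its form with another first letter, spelled GGGTCA. The others were the core of an HNF4 site, spelled CAAAGTCCA and the E-box, spelled CACGTG. A match is only a match of letters, and no marked motif overlaps another.
APOA2, chr1:161223599-161223878, minus strand: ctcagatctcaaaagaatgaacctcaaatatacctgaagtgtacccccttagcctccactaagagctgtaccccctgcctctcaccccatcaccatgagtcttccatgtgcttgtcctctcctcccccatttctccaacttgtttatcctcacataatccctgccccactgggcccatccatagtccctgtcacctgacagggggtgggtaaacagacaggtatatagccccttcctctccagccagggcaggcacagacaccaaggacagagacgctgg
APOA5, chr11:116792391-116792670, minus strand: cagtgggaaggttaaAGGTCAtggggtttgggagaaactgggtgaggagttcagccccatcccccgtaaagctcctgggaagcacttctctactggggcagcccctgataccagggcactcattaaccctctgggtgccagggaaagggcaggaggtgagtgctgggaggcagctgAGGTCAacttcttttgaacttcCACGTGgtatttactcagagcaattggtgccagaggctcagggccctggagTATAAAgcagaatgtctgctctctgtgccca
APOC1, chr19:44914422-44914701, plus strand: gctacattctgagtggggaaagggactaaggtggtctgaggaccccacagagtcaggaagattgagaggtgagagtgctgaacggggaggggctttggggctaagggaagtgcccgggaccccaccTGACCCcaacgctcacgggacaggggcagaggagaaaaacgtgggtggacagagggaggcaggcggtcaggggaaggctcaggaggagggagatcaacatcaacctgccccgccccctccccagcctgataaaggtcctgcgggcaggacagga
APOH, chr17:66229386-66229665, minus strand: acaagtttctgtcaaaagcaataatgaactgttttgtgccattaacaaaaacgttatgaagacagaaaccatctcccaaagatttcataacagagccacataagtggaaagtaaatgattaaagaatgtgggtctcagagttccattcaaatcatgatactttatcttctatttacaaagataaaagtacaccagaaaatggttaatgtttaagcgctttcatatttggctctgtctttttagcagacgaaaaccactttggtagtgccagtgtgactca
APOM, chr6:31655644-31655923, plus strand: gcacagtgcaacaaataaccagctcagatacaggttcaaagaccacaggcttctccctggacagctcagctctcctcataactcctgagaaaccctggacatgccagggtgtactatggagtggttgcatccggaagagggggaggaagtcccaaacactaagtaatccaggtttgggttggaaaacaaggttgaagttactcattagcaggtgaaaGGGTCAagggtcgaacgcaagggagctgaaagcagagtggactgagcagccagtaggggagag

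The window of APOA5 held the most matches, with 2 nuclear receptor half-sites, an E-box and the letters TATAAA. The first base of TATAAA lay at -1 from the annotated start, so this match spans the start itself. APOC1, on the opposite strand, and APOM each held the GGGTCA form of the half-site, and no motif of the list was found in the windows of APOA2 and APOH. Over 35116 RefSeq windows of 300 bases, the AGGTCA half-site was present in 13.8% and the GGGTCA form in 14.1%. The TATA box was present in 11.5%, the E-box in 7.26% and the HNF4 core in 0.384%.

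High glucose was also compared on the background of VPA, HGV against LGV. Here 3 of the 10 genes rose and 1 fell, where 40.7% of 16208 genes were called, 21.2% higher and 19.5% lower. APOC3 had 56.0, 74.6 and 88.8 CPM in HGV and 22.1, 27.2 and 18.0 CPM in LGV, 3.22-fold higher (log2 fold change 1.69, SE 0.17, FDR 1.09e-06). APOA1 rose by 91.6% (log2 fold change 0.94, SE 0.16, FDR 0.000184), with 1218, 1699 and 1741 CPM in HGV and 731, 905 and 765 CPM in LGV. APOA5, which had not passed between HG and LG, rose by 71.1% (log2 fold change 0.78, SE 0.17, FDR 0.00123). APOA2 fell by 34.3% (log2 fold change -0.61, SE 0.14, FDR 0.00268). In each of these 4 genes the HGV and LGV libraries did not overlap, as for 51.4% of all genes (27.7% with HGV higher and 23.7% lower).

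The other 6 did not pass between HGV and LGV. APOM had a log2 fold change of 0.28 (FDR 0.114), APOE -0.31 (FDR 0.0987), APOC1 -0.21 (FDR 0.261), APOB 0.22 (FDR 0.409), APOH 0.16 (FDR 0.427) and APOA4 -0.024 (FDR 0.940). Some of these calls turned on single libraries or settings. APOB passed without HGV replicate 2 (0.47, FDR 0.0396) and APOM without HGV replicate 1 (FDR 0.0445) or with library sizes (FDR 0.0240), while APOE passed without LGV replicate 1 (FDR 0.0224) or with DESeq2 (FDR 0.0494). HG against LG and HGV against LGV share no library. APOA1 and APOC3 were higher with glucose in both, 2 of 10 genes against 8.85% of all genes tested in both, and APOA2 was lower in both, 1 of 10 against 9.9%. The sign was the same in both for 8 of 10 members and for 80% of all genes.

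Whether the response to VPA differed between the media was tested as an interaction over the 12 libraries. None of the 10 genes passed, where 7 of 16389 genes did (0.0427%, of which 0.0244% higher and 0.0183% lower), and 1 of the 10 had an unadjusted p under 0.05, as had 1852 genes. By DESeq2's Wald test 162 genes passed, again with 0 of the 10. The 1 gene was APOA1, with a log2 difference of 0.50 between the responses (95% interval 0.076 to 0.92, FDR 0.340). Its log2 fold change with VPA was -0.61 in low glucose and -0.13 in high glucose. Adjusted over all genes, a difference between the responses of APOA1 was not shown. APOA5 followed at 0.53 (-0.030 to 1.09, FDR 0.469), APOB at 0.42 (-0.13 to 0.97, FDR 0.576) and APOC3 at 0.35 (-0.20 to 0.91, FDR 0.660), and the rest lay between -0.17 and 0.12.

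The balance between members was described by the ratio of their read counts within a library, which does not depend on the scaling of libraries. The pairs were picked with the values known, so no test is given. For each read of APOA1, the LG libraries held 0.790 to 0.929 reads of APOA2, LGV 0.585 to 0.713, HG 0.378 to 0.435 and HGV 0.192 to 0.245. The 4 groups did not overlap in this ratio of the HDL proteins. APOC3 to APOA1, neighbours on chromosome 11, gave 0.0294 to 0.0416 in LG, 0.0236 to 0.0303 in LGV, 0.0439 to 0.0510 in HGV and 0.0679 to 0.0719 in HG. The ratio of APOC3 to APOA1 was thus highest in HG, and LG and LGV overlapped.

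In the triglyceride group, APOA5 to APOA4 lay at 5.51 to 10.7 in LG, 10.1 to 11.6 in HG, 2.28 to 2.72 in LGV and 3.92 to 4.74 in HGV. In the remnant group, APOC1 to APOE lay at 0.170 to 0.198 in LG, 0.214 to 0.216 in HG, 0.112 to 0.122 in LGV and 0.110 to 0.137 in HGV. Both ratios were lower in each VPA library than in any library without it.

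**Figure D3:**
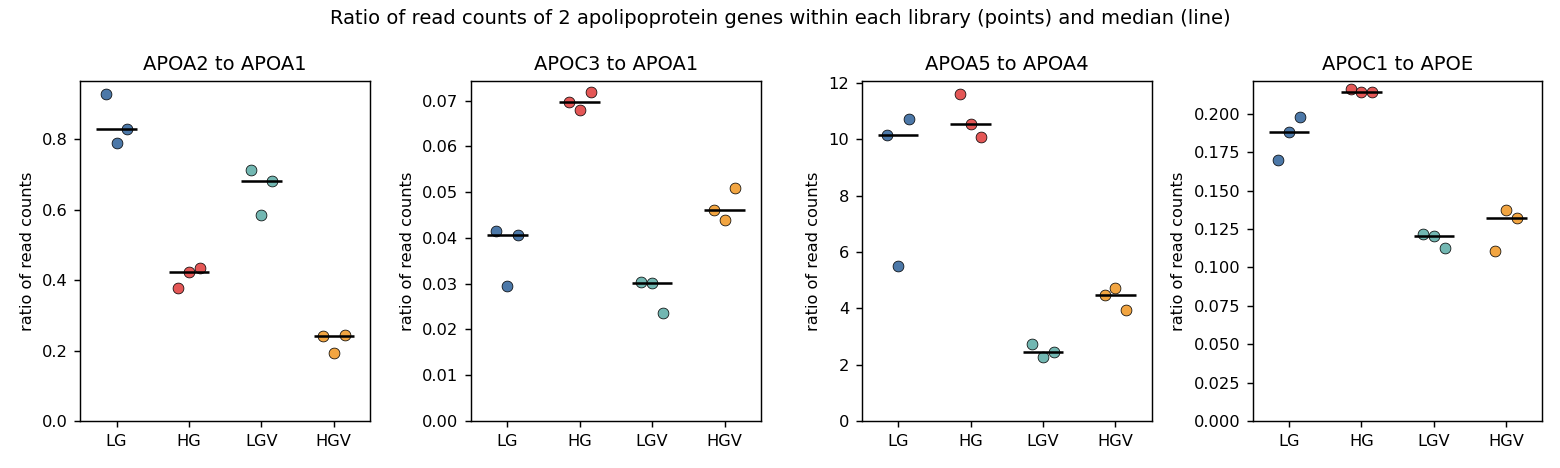
Ratio of the read counts of 2 genes within each library (vertical axes, from 0), with points for the 3 libraries of a group and lines for medians. APOA2 to APOA1 drops from 0.790 to 0.929 in LG down to 0.192 to 0.245 in HGV without overlap of groups, and APOC1 to APOE separates the libraries with VPA (0.110 to 0.137) from those without (0.170 to 0.216).

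APOA5, APOA4, APOC3 and APOA1 lie in 1 cluster on chromosome 11, and APOE and APOC1 in another on chromosome 19. On chromosome 11, within 100 kb of a member, BUD13, ZNF259 and SIK3 were also measured. ZNF259 lies 1328 bases from APOA5 and SIK3 5780 bases from APOA1. BUD13 passed in neither VPA comparison, and ZNF259 had log2 fold changes of -0.29 in HGV against HG (FDR 0.0339) and -0.051 in LGV against LG (FDR 0.771), against -1.02 and -1.54 for APOA5. SIK3 fell in HG by 0.43 on the log2 scale (FDR 0.0308), while its neighbour APOA1 rose. Within the cluster itself APOA4, 6402 bases from APOC3, had estimates near 0 where APOC3 had 1.38 and 1.69. APOA4 passed in none of the 4 comparisons.

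On chromosome 19, APOE and APOC1 are 4854 bases apart, with APOC1P1, a pseudogene of APOC1, and APOC2, the activator of lipoprotein lipase, downstream. APOC1P1 fell by 1.46 on the log2 scale in HGV against HG (FDR 0.000239) and by 1.39 in LGV against LG (FDR 0.00116), beside -1.09 and -0.91 for APOC1. Its level was low, at 5.24 CPM or less on average in each group. It is a near copy of APOC1, and the counting used a map quality threshold, so reads that match both may have been left out. This was not tested. APOC2, at 1.01 to 3.05 CPM on average, rose with high glucose (log2 fold change 0.89, FDR 0.00976; 1.02 under VPA, FDR 0.00612) and fell with VPA in HG (-0.55, FDR 0.0347). TOMM40, 2102 bases before APOE, fell with VPA in both media by 0.39 and 0.46 on the log2 scale (FDR 0.00819 and 0.00629). BCAM, PVRL2, CLPTM1 and RELB did not pass in either VPA comparison, although CLPTM1 fell in HG (-0.36, FDR 0.0446) and BCAM rose in HGV against LGV (0.50, FDR 0.00473).

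Around the single genes, 8 of 14 neighbours of APOA2 fell and 2 rose in HGV against HG, and 6 fell and 2 rose in LGV against LG. Among them UFC1 fell by 1.11 and 1.15 on the log2 scale, close to APOA2 itself, while PCP4L1 rose by 4.14 and 2.91. The level of PCP4L1 without VPA was near the floor, at 0.409 CPM on average in HG and 0.281 CPM in LG. Near APOM, 7 of 13 neighbours fell in HGV against HG and 0 rose, where 20.2% of all genes were called lower and 25.8% higher. In LGV against LG, 4 fell and AIF1 rose, where 19.9% were called lower and 21.7% higher. AIF1 averaged 0.248 CPM in LG and 0.676 CPM in LGV. It passed the count filter only through LGV, so only a rise could be called, and its fold and FDR are not given. BAG6 shares 136 exon bases with APOM on the opposite strand. It fell by 0.31 in HGV against HG (FDR 0.0276) where APOM did not pass, and whether the counting used strand is not stated. CEP112, 19900 bases from APOH, rose with VPA in both media (1.26 and 1.37) where APOH fell, and RP11-116D2.1, 512 bases from APOB, fell in HG (-0.89, FDR 0.0108) and did not pass with VPA. Exons of APOA1, APOA2, APOA4, APOB, APOC1 and APOE also overlap annotated genes without a row in the table. On the opposite strand this covers 43.2% of the exon bases of APOA4, 22.8% of APOA2 and 11.2% of APOA1 (by APOA1-AS). For APOC1 it is 40.7%, on the same strand, and for APOB and APOE 1.14% or less. The part of these overlaps in the counts was not tested.

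**Figure D4:**
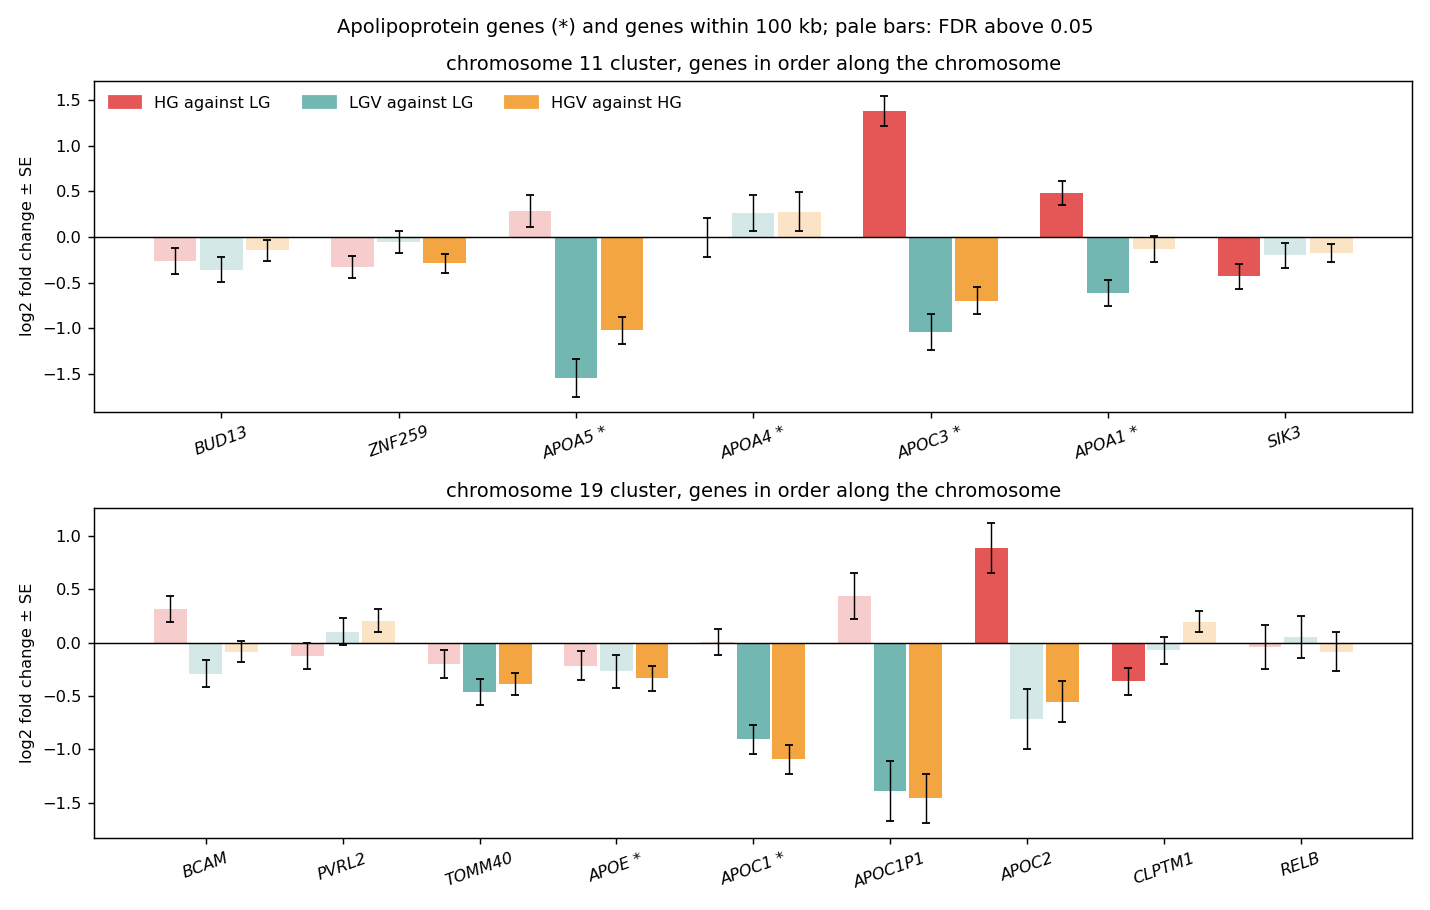
Log2 fold change with its standard error (vertical axes) of the apolipoprotein genes marked with a star and of measured genes within 100 kb, in order along the 2 clusters, in 3 comparisons of 3 with 3 libraries. APOA5 at -1.54 and -1.02 stands beside ZNF259 at -0.051 and -0.29, and APOC1 at -0.91 and -1.09 beside APOE at -0.27 and -0.33. Pale bars did not pass an FDR of 0.05.

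Further apolipoprotein genes were covered by a list of 24, of which 14 had a row. In HG against LG, 2 rose and 0 fell of 13 tested, where 12% of all genes were called higher and 12.7% lower. The 2 were APOC2 as above and APOL3 (log2 fold change 1.46, FDR 0.000397). In HGV against HG, 3 rose and 6 fell of 14, where 25.8% of all genes were called higher and 20.2% lower. The largest changes were those of APOL4, with 10 to 17 reads in HG and 166 to 310 in HGV (3.80, FDR 2.05e-07), of PON1, the paraoxonase carried by HDL (2.68, FDR 1.69e-05), and of APOL6, which fell (-1.42, FDR 1.77e-06). The median was -0.040 in HGV against HG. In LGV against LG, 4 rose and 4 fell of 14, with a median of -0.25, where 21.7% of all genes were called higher and 19.9% lower. APOL4, 1 of these 4 rises, held 4 to 7 reads in LG and passed the count filter only through LGV.

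Particle assembly, secretion and editing of the APOB transcript were covered by 18 genes, 15 of them measured. In high glucose 3 rose and 5 fell, where 12% of all genes were called higher and 12.7% lower. Among those that fell were MIA3 (-1.14, FDR 2.86e-05) and CTAGE5 (-0.87, FDR 0.00202), which help to load bulky cargo into secretory vesicles. With VPA in HG, 4 rose and 2 fell, where 25.8% of all genes were called higher and 20.2% lower. The largest change was that of RBM47, an RNA-binding cofactor of APOB editing. It rose by 1.94 on the log2 scale (FDR 7.88e-08) after a value of -0.83 in HG against LG (FDR 0.00205). CTAGE5 fell again with VPA (-0.81, FDR 0.00491), as did SYNCRIP, another RNA-binding protein (-0.69, FDR 0.000933).

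Genes of HDL formation and remodelling, 13 of 14 measured, gave 4 rises and 1 fall of 11 tested in HG against LG. Of all genes, 12% were called higher there and 12.7% lower. Endothelial lipase LIPG, which hydrolyses HDL phospholipids, rose by 2.07 (FDR 1.36e-06), PCOLCE2 by 0.91 (FDR 0.000792) and PDZK1, the adaptor of the HDL receptor, by 0.78 (FDR 0.00214). With VPA in HG, 4 rose and 3 fell of 13, where 25.8% of all genes were called higher and 20.2% lower. PLTP, the phospholipid transfer protein, rose by 1.29 (FDR 3.79e-06). ABCG1, a cholesterol exporter, had 1, 4 and 2 reads in the HG libraries and 35, 69 and 34 in HGV. ABCG4 had 0, 2 and 1 reads in HG and 49, 87 and 74 in HGV. Folds and FDRs are not given for these, since the HG counts are at the edge of detection. Both count among the 4 rises, but they passed the count filter only through HGV, so only a rise could be called.

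Receptors and uptake factors, 14 of 14 measured, gave 1 rise and 2 falls of 13 tested in HG against LG. Of all genes, 12% were called higher there and 12.7% lower. MYLIP, a ubiquitin ligase of the LDL receptor, fell by 0.78 (FDR 0.00764) and LSR, a receptor of triglyceride-rich particles, by 0.68 (FDR 0.00116). VPA in HG gave 6 rises and 2 falls of 14, where 25.8% of all genes were called higher and 20.2% lower. LRP2, a large endocytic receptor, had 5 to 8 reads in HG and 379 to 404 in HGV. It counts among the 6 rises, but it passed the count filter only through HGV, so only a rise could be called. Its fold and FDR are therefore not given. CUBN went from 11 to 19 reads in HG to 44 to 62 in HGV (1.71, FDR 0.000406), and MYLIP rose by 0.97 (FDR 0.000193).

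Lipases and their regulators, 12 of 16 measured, gave 5 rises and 2 falls in HG against LG. Of all genes, 12% were called higher there and 12.7% lower. C19orf80, the older symbol of ANGPTL8, an inhibitor of lipoprotein lipase, rose by 1.35 (FDR 0.00341), although HG replicate 1 held 492 reads against 1753 and 1259 in the other HG libraries. GCKR, the glucokinase regulator, rose by 1.24 (FDR 0.000307), and SEL1L, needed for the maturation of lipases, fell by 1.63 (FDR 4.68e-07). VPA in HG gave 4 rises and 2 falls, where 25.8% of all genes were called higher and 20.2% lower. PCSK5 was at 2.34 (FDR 2.90e-06), the lysosomal lipase LIPA at 1.15 (FDR 9.61e-06) and PCSK6 at -1.07 (FDR 5.59e-06).

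Transcription factors and coregulators known to act on apolipoprotein genes formed a list of 40, all measured. In HG against LG, 2 rose and 11 fell, where 12% of all genes were called higher and 12.7% lower. ESRRA (-0.76, FDR 0.000853), RORA (-0.74, FDR 0.0153) and NR5A2 (-0.73, FDR 0.0126) had the largest changes. In HGV against HG, 4 rose and 22 fell, where 25.8% of all genes were called higher and 20.2% lower. For LGV against LG 3 rose and 15 fell, where 21.7% of all genes were called higher and 19.9% lower. The median log2 fold changes were -0.36 and -0.29, against -0.52 and -0.75 for the 10 apolipoproteins. NR1H4, the bile acid receptor FXR, fell by 1.79 with VPA in HG (FDR 3.12e-07) and NR1D2, a clock repressor, by 1.16 (FDR 0.000107), while PPARGC1B, a coactivator, rose by 2.21 (FDR 2.48e-06). HNF4A, named here after its values were seen because it is a known activator of many liver genes, was at 404 CPM in HG and 293 CPM in HGV (log2 fold change -0.46, FDR 0.00141). The log2 fold change of HNF4A was -0.73 in LGV against LG (FDR 0.000299) and -0.012 in HG against LG (FDR 0.954). The part of these regulators in the changes of the apolipoproteins was not tested.

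Hepatocyte markers moved with several of the apolipoproteins. In HG against LG, 5 of 14 rose and 2 fell, where 12% of all genes were called higher and 12.7% lower. G6PC, the last enzyme of glucose output, was at 1.18 (FDR 0.000304) and the fibrinogen chains FGA and FGB at 0.94 and 0.88 (FDR 0.000132 and 0.000836). With VPA in HG, 1 rose and 7 fell, where 25.8% of all genes were called higher and 20.2% lower. With VPA in LG, 0 rose and 10 fell, where 21.7% of all genes were called higher and 19.9% lower. TAT fell by 1.11, FGG by 1.06 and FGA by 0.84 in HGV against HG (FDR 4.18e-05, 6.77e-05 and 0.000497). The marker medians with VPA were -0.44 in HG and -0.58 in LG, beside -0.52 and -0.75 for the apolipoproteins. So other liver genes outside the family fell as well, and nothing particular to apolipoproteins is read from their counts.

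Markers of other cell types gave 4 rises and 0 falls of 7 tested in HG against LG, where 12% of all genes were called higher and 12.7% lower. The 4 were CD14 (1.28, FDR 0.00160), RGS5 (1.08, FDR 0.0176), ACTA2 (1.02, FDR 5.42e-05) and SOX9, which was high in all libraries. In HGV against HG 2 of 9 rose, COL1A1 (2.52, FDR 8.96e-05) and CDH5 (1.65, FDR 0.00133), from 10 to 19 reads per HG library. Another 3 fell, with ACTA2 at -0.76 (FDR 0.000389), where 25.8% of all genes were called higher and 20.2% lower. Their part in the results was not tested.

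Likeness to each apolipoprotein was measured across the 12 libraries as the root mean square difference of log2 CPM after centring, among 11953 genes. The nearest gene to APOA2 was TAT (difference 0.161) followed by RILP (0.183), where the spread of APOA2 itself was 0.609. For APOC3 it was SERPINA11 (0.217) and then EXOC3L4 (0.268), with a spread of 0.926, and SERPINA11 had 1.20 in HG against LG and -0.61 in HGV against HG. APOA1 was nearest to TUBB4B (0.0856) and MCM2 (0.124), and APOA5 to COLCA2 (0.128) and WDR18 (0.156). APOC1 lay nearest to DUSP9 (0.116) and SEPHS1 (0.118), APOH to FAM3B (0.0774) and TTC27 (0.131), and APOB to MDN1 (0.116) and ZNF550 (0.136). APOE had SLC25A6 (0.0684) and ZNF768 (0.0760), APOM CYBA (0.0905) and ORMDL3 (0.0927), and APOA4 ZBTB8OS (0.149) and DBI (0.153). No apolipoprotein gene was among the 2 nearest of another, and the points share libraries and scaling.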

How the data were processed

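Poly(A)-selected RNA of HepG2 cells was read as 50 nt single-end reads, 3 libraries for each of LG, HG, LGV and HGV. The authors aligned the trimmed reads to GRCh37 with STAR and deposited raw read counts per Ensembl gene from featureCounts, without normalization, as 1 table of 16389 genes, having left out those averaging under 10 reads per sample. A directional kit was used, but whether the counting used strand is not given in the sources used here.

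The fits used edgeR 4.0.16 under R 4.3.3 (TMM factors of 0.879 to 1.095, quasi-likelihood F test, libraries of each comparison alone, mean count of at least 10). Each FDR is Benjamini-Hochberg adjusted over all genes tested, and SE is the size of the log2 fold change divided by the square root of F. RPKM used the exon length of GENCODE 44 on GRCh37, with the exons of all annotated transcripts merged, and 97.47% of genes were placed. Libraries of a group differed by more than sampling noise (chi-square per gene of 10.2 to 64.3), so no pair was taken as 1 library. The test was also tested on simulated data. Of 2-fold changes between HG and LG it recovered 79.3% (153 of 193 over 15452 genes, 11 false calls of 164). For the interaction it recovered 54.3% (107 of 197 over 16389 genes, 9 false calls of 116). Only these few genes were changed, set up and down in equal number, whereas 24.7% of genes were called in HG against LG. The rates need not hold for such shares.

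The members and gene lists were chosen with earlier results of these data known. The text names all 10 members, up to 3 called genes with the largest change per list in HG against LG and in HGV against HG, measured genes within 100 kb of a member, and the 2 genes most like each member among genes whose log2 CPM averaged 1 or more (prior count 2). HNF4A and SOX9 are named outside this rule, and a few list genes that enter the counts are not reported here by name. Alternatives were DESeq2 1.42.0 with the Wald test, its size factors, library sizes alone, TMM without the members, other filters (none, or 1 CPM in at least 3 libraries), an FDR of 0.01, one fit of all 12 libraries, replicate number as a block, and leaving out each replicate. Precision is limited by 3 libraries per group and, for APOA4, by 93 to 180 reads per library.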

Additional observations from a re-analysis of the deposited data

How the results depend on the processing

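With library sizes in place of TMM scaling, the median log2 fold change of all genes moved by 0.121 in HGV against HG and by 0.162 in LGV against LG, and the split of higher and lower calls moved to 5182 and 2424 (4184 and 3272 with TMM) and to 4500 and 1956 (3461 and 3177). In HG against LG it was 2172 and 1297 (1854 and 1959) and in HGV against LGV 3761 and 2309 (3444 and 3160). Under this scaling 0 members rose and 5 fell in HGV against HG, and 0 rose and 7 fell in LGV against LG, while 3 rose and 1 fell in HG against LG and 4 rose and 1 fell in HGV against LGV. Over the 9 alternatives that kept all libraries, members called numbered 3 to 4 in HG against LG, 5 to 6 in HGV against HG, 7 in LGV against LG, 4 to 5 in HGV against LGV and 0 of 10 in the interaction (8 alternatives there). Leaving out 1 library gave 2 to 4, 5 to 6, 7, 4 to 5 and 0. The cause of none of these changes was tested.

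Over all genes, an FDR of 0.01 left 1852 in HG against LG, 4263 in HGV against LGV and 1 in the interaction. The interaction count was also 1 with library sizes, 162 with DESeq2's Wald test and 13 with the replicate block, and ran from 1 to 217 without single libraries (217 without LG replicate 2). Without single libraries, HG against LG gave 1933 (without LG replicate 1) to 5338 genes (without LG replicate 3), and 2076 without HG replicate 3.

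Of 800 values of single genes under an alternative, 744 kept direction and side of the threshold, 9 lost and 8 gained the call, and 39 reversed, 27 of them without single libraries. All reversals were of values that had not passed. APOA4 reversed in HG against LG with library sizes (0.089), without a filter (0.011) and in one fit of all libraries (0.0087), and ran from -0.11 to 0.089 without single libraries. APOC1 there was -0.00125 with DESeq2, -0.00440 with the CPM filter and -0.00110 with the replicate block, and -0.046 to 0.11 without single libraries. APOM in HGV against HG was 0.048 with library sizes and -0.17 to 0.045 without single libraries, where APOA1 ran from -0.22 to 0.021 and APOB from -0.36 to 0.058. APOA4 in HGV against LGV was 0.060 with library sizes and -0.22 to 0.15 without single libraries. In the interaction APOA4 was -0.00404 with DESeq2's size factors, -0.028 with library sizes, -0.00395 with the Wald test and -0.00662 with the CPM filter. Without single libraries the interaction ran from -0.17 to 0.19 for APOA4, -0.17 to 0.11 for APOA2, -0.19 to 0.045 for APOE, -0.24 to 0.054 for APOH and -0.000447 to 0.24 for APOM.

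Replicate numbers did not consistently pair the libraries: same-numbered libraries correlated over 0.1 in 0 to 2 of 3 pairs per comparison. In HGV against HG the highest correlation was 0.392 for same-numbered and 0.563 for differently numbered libraries. In LGV against LG these were 0.476 and 0.558. Whether libraries share a culture or batch under other numbers was not tested. The replicate block gave 3351 genes in HG against LG and 8229 in HGV against HG, and of 50 member values it changed the call of 1, APOE in HGV against LGV (FDR 0.0265).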
